A study of Homo sapiens with 18 samples.

Results

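The comparison described here is the difference between 2 pancreatic cancer cell lines in their response to THZ1: for each gene, the log2 change from DMSO to THZ1 in MIA PaCa-2 (spelled MiaPaCa-2 or Miapaca2 in the labels) minus the same change in BxPC-3. It uses the 12 libraries of these lines out of 18 in the series, 3 in each of 4 groups. These are BxPC-3 with DMSO, BxPC-3 with 100 nM THZ1, MIA PaCa-2 with DMSO and MIA PaCa-2 with 100 nM THZ1, all after 6 h. Every group came from the same culture medium and from an established human pancreatic ductal adenocarcinoma line, and DMSO is the solvent control. Each line stands for a single tumour, so a difference between them cannot be told apart from any other difference between those cell lines. The study calls its 3 samples per group biological triplicates and says no more of how they were raised, so the p-values measure the spread between these libraries. A gene was counted when limma gave its difference an adjusted p under 0.05. Of 17026 endogenous genes, 14891 reached the minimum level and were tested, and 6114 of them (41.1%) had a called difference.

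THZ1 binds and blocks CDK7 irreversibly. CDK7 is part of TFIIH, a general transcription factor, and phosphorylates the tail of RNA polymerase II as it leaves promoters. It also binds CDK12 and CDK13, which act on the elongating polymerase. When such a drug blocks new transcription, RNAs with short lives disappear from the cell before long-lived ones do, and immediate early genes, cytokine feedback genes and many cell cycle genes are known for short-lived RNAs. BxPC-3 is known as a line of epithelial form, and MIA PaCa-2 as one of a more mesenchymal form.

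The marker genes matched that description in part. The keratins KRT8 and KRT18 were expressed in both lines. The adhesion gene CDH1 had a mean level of 298 ± 13.6 (SD, n = 3) in BxPC-3 with DMSO against 0.179 ± 0.0530 in MIA PaCa-2, and KRT7 stood at 1976 ± 76.4 against 0.915 ± 0.146. The mesenchymal genes VIM and ZEB1 were lower in BxPC-3, at 12.3 ± 0.595 and 0.909 ± 0.174, than in MIA PaCa-2, at 1413 ± 55.1 and 38.6 ± 2.75, whereas FN1, the third mesenchymal marker measured, was higher in BxPC-3, at 26.4 ± 1.55 against 3.48 ± 0.540. Of 6 fibroblast markers 4 were in the table, and the DMSO libraries summed to 10.1 to 10.7 in BxPC-3 against 169 to 173 in MIA PaCa-2, most of the latter COL3A1 and COL1A2. Nearly all of the BxPC-3 sum was COL1A1, which was the higher there, at 9.51 ± 0.550 against 0.898 ± 0.161. The acinar markers summed to less than 1 in all 12 libraries, and no endocrine or leukocyte marker was in the table. Levels are given on the authors' scale multiplied by 1 constant, on which the average library of the series sums to 1e+06. The libraries held 12556005 to 20910423 reads, and 1 unit of level stood for 9.50 to 24.7 reads. The ERCC controls, synthetic RNAs added to the extracted RNA, summed to 2330 ± 198 with DMSO and 5322 ± 390 with THZ1 in BxPC-3. In MIA PaCa-2 the sums were 1792 ± 114 and 4442 ± 832. The sign of a response in 1 line therefore depends on the scale, whereas 6009 of the 6114 called differences kept their sign on the deposited scale and on 5 others. Fewer of the 6114, namely 2706, were also called on every one of these scales.

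The difference was higher in MIA PaCa-2 for 2486 genes (16.7%) and lower for 3628 (24.4%), with a median over all genes tested of -0.06. On the log2 scale its median standard error was 0.14. This split moved with the scale. It was 936 higher and 2414 lower with ERCC scaling, where the median of all genes was -0.18, against 3123 and 2811 with equal library sums and 3060 and 2870 with DESeq2 size factors. Differences of at least 2-fold were found for 747 genes (5.02%), of which 407 (2.73%) were higher and 340 (2.28%) lower. All 747 had the same sign on those 6 scales, and 713 were called on all of them. The 9 possible differences between a THZ1 and a DMSO library of 1 line did not overlap those of the other line for 5245 genes (35.2% of those tested), and for 746 of the 747.

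The pseudocount of 1 pulls the response of a weakly expressed gene towards 0, so a gene that is silent in 1 line can show a difference without any change there. Among the 788 genes under 1 in all 6 BxPC-3 libraries 294 had a called difference, and among the 506 under 1 in all 6 MIA PaCa-2 libraries 215. With a mean level of at least 10 in a group of each line, 8185 genes remained, of which 1431 were higher and 2471 lower, 115 and 104 of them by at least 2-fold. The count test of edgeR on the recovered reads called 5195 of the 6114 in the same direction, and 3693 of the 3902 at that level.

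The called differences were sorted by the response of each line, which was itself called for 75.9% of the genes tested in BxPC-3 (51.2% up, 24.7% down) and 74.5% in MIA PaCa-2 (48.2% up, 26.2% down). These shares and the classes below are those of the deposited scale, and up or down depends on it. On that scale the median response was 0.26 for BxPC-3 and 0.20 for MIA PaCa-2. The same medians were -0.68 and -0.89 with ERCC scaling and -0.30 and -0.32 with equal sums. They were 0.30 and 0.22 with equal medians, 0.03 and -0.03 with TMM factors, and 0.04 and 0.03 with DESeq2 size factors. As deposited, both lines rose and BxPC-3 rose more for 1433 genes, and MIA PaCa-2 rose more for 593. Both fell and BxPC-3 fell more for 605, and MIA PaCa-2 fell more for 412. A response was called in BxPC-3 alone for 791 genes that rose and 515 that fell, and in MIA PaCa-2 alone for 502 that rose and 630 that fell. Opposite called responses were found for 596 genes (4% of those tested): 255 (1.71%) rose in MIA PaCa-2 and fell in BxPC-3, and 341 (2.29%) did the reverse. The count rested on the scale: 98 genes were called opposite with ERCC scaling, and the 2 signs stayed opposite on all 6 scales for 34 of the 596, of which 14 were up in MIA PaCa-2 and 20 in BxPC-3. Of the 34, 12 were called opposite on every scale.

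**Figure D1:**
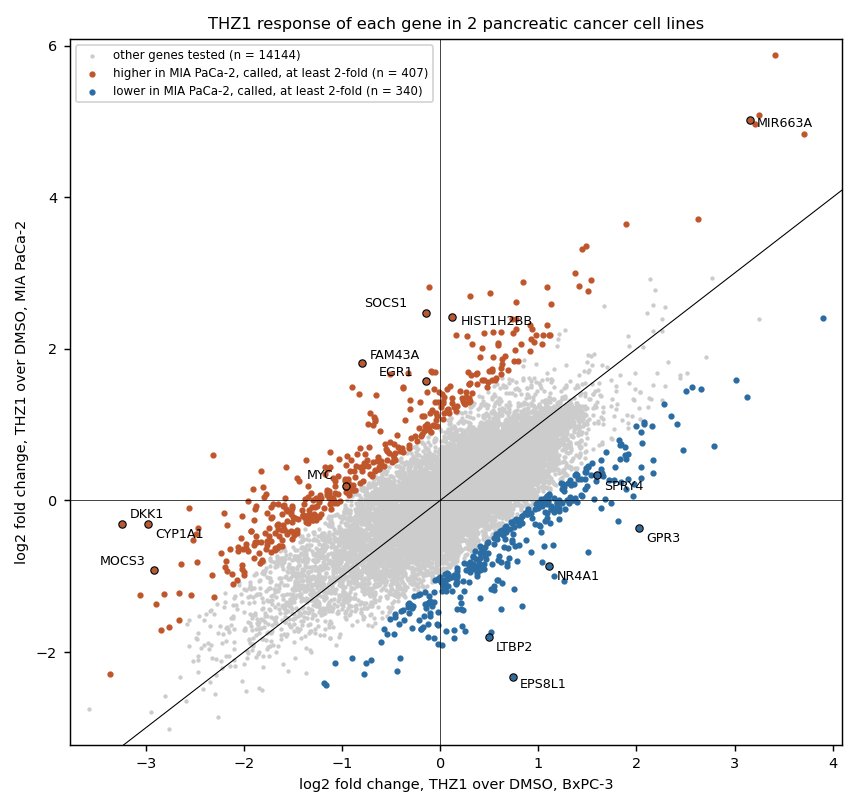
Log2 fold change of THZ1 over DMSO in BxPC-3 (x axis) and in MIA PaCa-2 (y axis) for the 14891 genes tested. Points are genes, orange where the difference was called, at least 2-fold and higher in MIA PaCa-2 (407), blue where lower (340), and the diagonal marks equal responses. DKK1, CYP1A1 and MOCS3 fell mostly in BxPC-3, and EPS8L1 and LTBP2 fell in MIA PaCa-2.

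The gene with the highest difference among the well-expressed ones was DKK1, which codes for a secreted inhibitor of the Wnt co-receptor LRP6. Its level in BxPC-3 was 105, 101 and 106 with DMSO and 10.7, 8.96 and 10.7 with THZ1, and in MIA PaCa-2 31.6, 31.8 and 35.8 with DMSO and 26.8, 27.4 and 25.4 with THZ1. DKK1 was thus the higher of the lines in BxPC-3 before treatment and the lower after it, with no overlap. The responses were -3.24 and -0.30 and the difference 2.94 ± 0.10 (SE; limma adjusted p = 3.3e-16). Other genes of this kind fell deeply in BxPC-3 and less in MIA PaCa-2: BLOC1S3, a subunit of the lysosome biogenesis complex BLOC-1 (response -2.56 against -0.10, the latter not called), MOCS3, which activates the molybdenum cofactor synthase and the tRNA thiolation carrier (-2.92 against -0.92), and LCMT2, a tRNA methyltransferase (-2.17 against -0.32). TIGD5, a gene derived from a transposase, had responses of -2.52 and -0.52. LCMT2, TIGD5 and LENG9 overlap a neighbouring gene in the RefSeq annotation, and how the authors assigned reads to strands is not given in the sources used here, so their values are uncertain.

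FAM43A, whose function is little known, rose in MIA PaCa-2 and fell in BxPC-3. In BxPC-3 its level was 21.7, 24.7 and 23.5 with DMSO and 10.1, 14.5 and 15 with THZ1, and in MIA PaCa-2 6.92, 5.77 and 5.83 with DMSO and 25, 22.9 and 24.7 with THZ1. The groups of each line did not overlap, and the signs were opposite on all 6 scales. The difference was 2.61 ± 0.16 (limma adjusted p = 3.7e-12). LENG9 had responses of -0.90 and 1.49 and opposite signs on all scales as well. FAM43A and LENG9 were the only genes that the naming rule for strong opposite responses chose.

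EPS8L1, an actin-regulating relative of the EGF receptor substrate EPS8, had the lowest difference. Its level in BxPC-3 was 22.9, 22.2 and 27.4 with DMSO and 39.5, 44.6 and 38.5 with THZ1, and in MIA PaCa-2 12.4, 12.7 and 10.7 with DMSO and 2.02, 1.25 and 1.47 with THZ1. It rose in BxPC-3 on the deposited scale and fell in MIA PaCa-2, with a difference of -3.08 ± 0.16 (limma adjusted p = 1.6e-13). LTBP2, an extracellular protein of the latent TGF-beta binding family, behaved likewise: 11.6, 11.6 and 12.2 against 16.6, 17.8 and 16.8 in BxPC-3, and 87.3, 84.4 and 87.3 against 22.7, 25.2 and 24.5 in MIA PaCa-2. Its level in MIA PaCa-2 with THZ1 was still above that of BxPC-3 with THZ1, and its difference was -2.29 ± 0.10 (limma adjusted p = 5.6e-15).

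GPR3, a receptor that activates cyclic AMP signalling without a known ligand, rose in BxPC-3 and fell in MIA PaCa-2. Its level in BxPC-3 went from 2.51, 2.56 and 4.32 to 16, 14.5 and 16.1, and in MIA PaCa-2 from 16.8, 15.9 and 17.8 to 13.5, 13.1 and 12. BxPC-3 was the lower line with DMSO and the higher one with THZ1, without overlap. The difference was -2.39 ± 0.18, and its signs were opposite on all 6 scales. SEMA4B, a semaphorin, was level in BxPC-3 (response -0.06, not called) and fell in MIA PaCa-2 by 1.81, from a mean of 60.9 to 16.6, while ADAM8, a membrane protease, went from 149 to 332 in BxPC-3 and from 17.8 to 11.5 in MIA PaCa-2. DLC1, a tumour suppressor that acts on small GTPases, and ZSWIM4 also fell in MIA PaCa-2, with responses of -1.72 and -1.74 and differences of -1.97 and -2.26. The row named MIR24_2, next to ZSWIM4, had a difference of -2.08, and the pseudogene row GPX1P1 one of -2.16. The last 2 may share reads with a neighbour or with their parent gene.

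Promoters of 4 genes with large differences are shown because each holds a known element before its start. They were chosen after their values and motifs were seen. Each line gives the 120 bases before the annotated start in RefSeq (GRCh38.p14), 5′ to 3′ on the gene's strand, with the motif match in capitals. DKK1 lies at chr10:52314161-52314280 (plus strand) and CYP1A1 at chr15:74725529-74725648 (minus strand), both with TATAAA, which lies in 6.01% of 27305 such windows. GPR3 lies at chr1:27392502-27392621 (plus strand) with TGACGTCA, the cyclic AMP response element, found in 1.39%. SOCS1 lies at chr16:11256205-11256324 (minus strand) with a match on the other strand to the core of the interferon-stimulated response element, found in 1.44%.
DKK1: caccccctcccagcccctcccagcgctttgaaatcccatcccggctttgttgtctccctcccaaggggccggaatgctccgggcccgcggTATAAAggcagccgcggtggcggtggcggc
CYP1A1: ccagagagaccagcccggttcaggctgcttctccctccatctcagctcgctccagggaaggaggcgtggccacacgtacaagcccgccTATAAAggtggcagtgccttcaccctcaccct
GPR3: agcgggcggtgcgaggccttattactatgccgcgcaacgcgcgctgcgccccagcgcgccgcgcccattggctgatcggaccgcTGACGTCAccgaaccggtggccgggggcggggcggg
SOCS1: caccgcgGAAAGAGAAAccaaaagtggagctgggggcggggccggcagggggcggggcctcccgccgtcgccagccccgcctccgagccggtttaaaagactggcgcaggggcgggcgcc
A match is a description of these letters and is no evidence that a factor binds there. Over all genes no comparison of motif shares is given, because 63.4% of the genes tested could be matched to a promoter, too few for it.

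**Figure D2:**
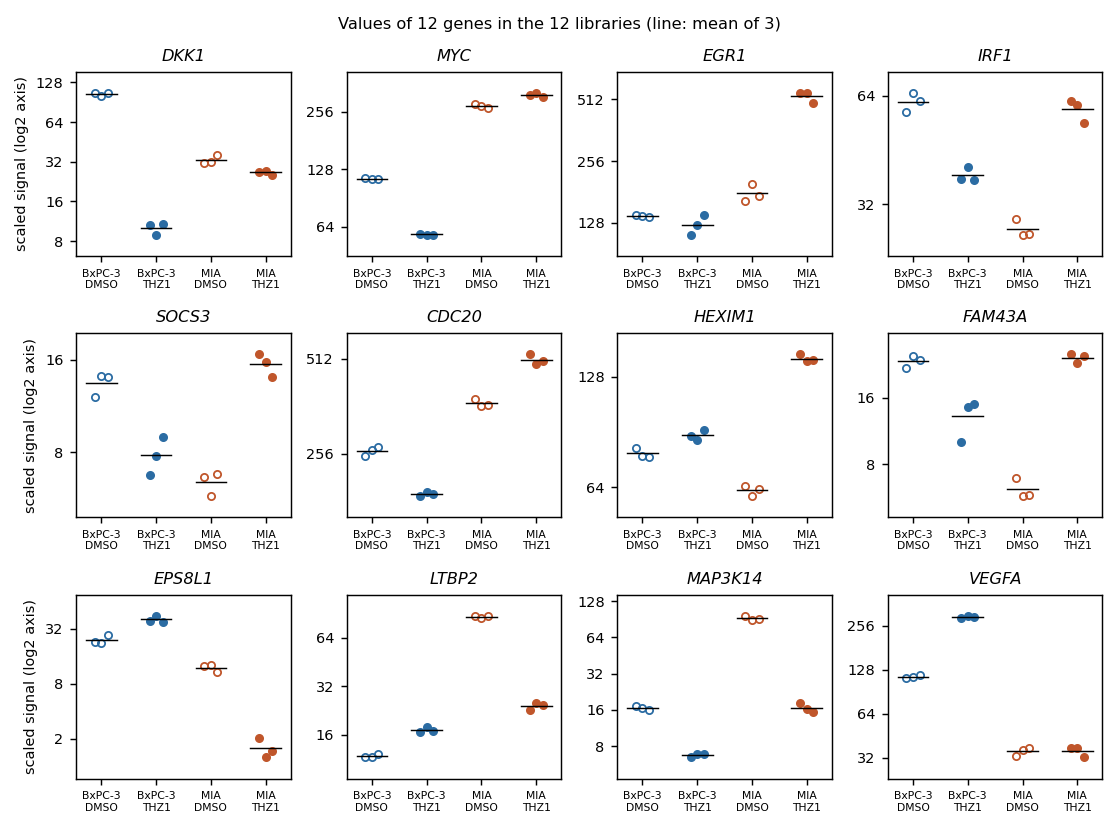
Levels of 12 genes in the 12 libraries on a log2 axis, in BxPC-3 (blue) and MIA PaCa-2 (MIA, orange), open points for DMSO and filled points for THZ1, with the mean of 3 as a line. DKK1 fell from 104 to 10.1 in BxPC-3, and LTBP2 from 86.3 to 24.1 in MIA PaCa-2.

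Genes of the drug's own targets and of the P-TEFb elongation kinase moved by less. CDK7 stood at 14.4, 14.1 and 13.4 against 11.2, 10.5 and 8.72 in BxPC-3 and at 43.5, 47 and 46.6 against 46.3, 44.1 and 48.2 in MIA PaCa-2. It fell in BxPC-3 without overlap and its groups overlapped in MIA PaCa-2, and the difference was 0.45 ± 0.12 (limma adjusted p = 0.0031). CDK12 did not differ by the test (-0.15 ± 0.07, limma adjusted p = 0.094) and CDK13 differed by -0.38 ± 0.08. The calls of CDK7 and CDK13 were lost with ERCC scaling and with all 18 libraries. HEXIM1, which holds P-TEFb inactive and is itself a known sensor of it, rose in MIA PaCa-2 from a mean of 62.7 to 144 and in BxPC-3 from 79.0 to 88.7, a difference of 1.02 ± 0.07. The kinase of P-TEFb, CDK9, had a difference of 0.77, whereas its cyclins CCNT1 and CCNT2 had -0.55 and -0.62, calls that were lost with 18 libraries. Of the 11 genes of this list 3 were higher and 4 lower.

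MYC, the growth-promoting transcription factor whose RNA is short-lived, fell in BxPC-3 and rose slightly in MIA PaCa-2 on the deposited scale. Its level in BxPC-3 was 115, 113 and 114 with DMSO and 58.9, 58.3 and 58.2 with THZ1, and in MIA PaCa-2 280, 274 and 266 with DMSO and 312, 320 and 306 with THZ1. The groups did not overlap in either line, and MIA PaCa-2 held the higher level throughout. The difference was 1.15 ± 0.06 (limma adjusted p = 8.4e-14), and it was 1.03 with ERCC scaling. MCL1, the short-lived survival factor of the BCL2 family, fell in BxPC-3 by 0.36 and had a response of 0.04 in MIA PaCa-2, a difference of 0.39 ± 0.06 whose call was lost with ERCC scaling and with 18 libraries. Among the 15 BCL2 family genes tested 4 were higher and 2 lower, and BCL2L1 moved the other way with a difference of -0.52, not called with 18 libraries.

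Of 42 mitosis genes tested 32 were higher in MIA PaCa-2 and 0 lower by limma. By limma 2 were lower at an unadjusted p under 0.05, and by edgeR 0 were lower. The median difference was 0.43 against -0.06 over all genes tested. On the deposited scale 6 of the 42 had opposite responses. The list had a median response of -0.55 in BxPC-3 against -0.03 in MIA PaCa-2. Over the 9 library pairs it ran from -0.62 to -0.5 in BxPC-3 and from -0.0981 to 0.0181 in MIA PaCa-2. The phosphatase CDC25B, which activates CDK1, went from 492, 509 and 508 to 266, 273 and 272 in BxPC-3 and from 292, 281 and 278 to 345, 316 and 324 in MIA PaCa-2. On the deposited scale its levels did not overlap between treatments in either line, and the order of the lines was reversed by THZ1. CDC20, the activator of the anaphase-promoting complex, had a difference of 0.90 ± 0.06, with mean levels of 261 and 191 in BxPC-3 and 371 and 509 in MIA PaCa-2. PLK1, CCNB1, AURKB and KIF20A, named after their values were seen, differed by 0.72, 0.79, 0.68 and 0.81, and the call of AURKB was lost with 18 libraries. With ERCC scaling 8 of the 42 were called, all higher, at a median of 0.31, and with equal medians 32 were higher and 2 lower.

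**Figure D3:**
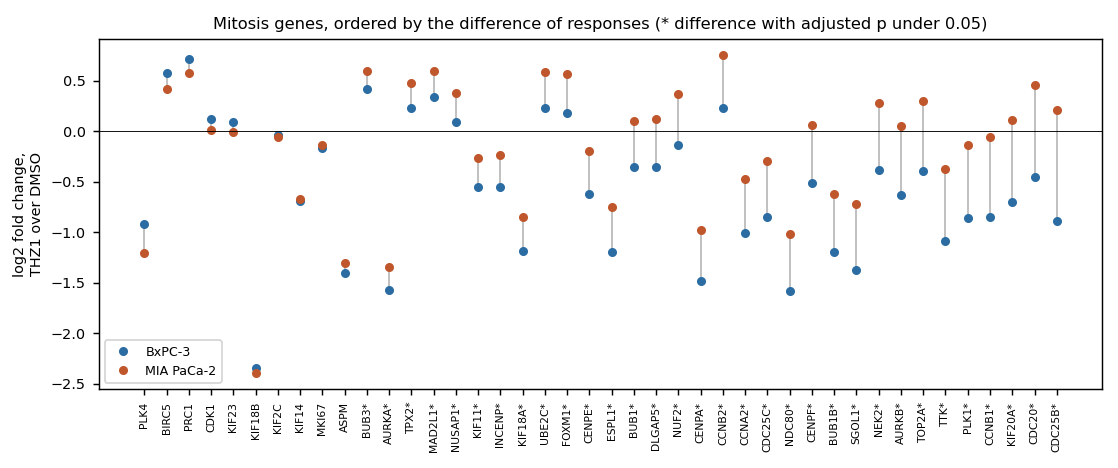
Log2 fold change of THZ1 over DMSO for the 42 mitosis genes in BxPC-3 (blue) and MIA PaCa-2 (orange), joined for each gene and ordered by the difference, with called differences starred. All 32 called genes were called higher in MIA PaCa-2, so their orange points lie above the blue ones by definition.

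Of the 44 genes of S phase tested, 13 were higher and 7 lower, with a median of 0.04 that was -0.08 with ERCC scaling. CDT1 and E2F1 fell in BxPC-3 alone (differences 0.96 and 0.95), and MCM10 and E2F2 fell more in MIA PaCa-2 (-0.76 and -0.86). The replication-dependent histone genes were higher for 36 of 43 and lower for 0 (0 at an unadjusted p under 0.05, 0 by edgeR), 27 of them by at least 2-fold, with a median of 1.06. At a mean of at least 10 in a group of each line only 5 of the 43 remained, of which 2 were higher, with a median of 0.15. These RNAs normally carry no poly(A) tail, the libraries were built from polyadenylated RNA, and many of the genes are near-identical copies, so single rows are uncertain. HIST2H2BE, which had the highest difference of the 5, went from 6.4, 6.4 and 5.87 to 17.7, 19.3 and 16.2 in BxPC-3 and from 6.88, 7.22 and 8.19 to 66.6, 70.4 and 62.4 in MIA PaCa-2. Both lines rose without overlap, and the difference was 1.63 ± 0.13. Rows named for fragments of the ribosomal RNA precursor, whose copies cannot be told apart either, were higher for 4 of 7 and lower for 0 (0 at an unadjusted p under 0.05, 0 by edgeR). MIR663A rose from a mean of 71.8 to 648 in BxPC-3 and from 251 to 8221 in MIA PaCa-2 (difference 1.87 ± 0.08).

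The immediate early genes, transcription factors that growth factors and stress switch on quickly, moved in both directions. Of 28 tested 15 were higher and 7 lower, with a median of 0.36. EGR1 stood at 140, 139 and 137 against 112, 125 and 139 in BxPC-3 and rose from 164, 197 and 173 to 548, 549 and 494 in MIA PaCa-2. The BxPC-3 groups overlapped, and in MIA PaCa-2 every THZ1 library was above every DMSO library. The difference was 1.72 ± 0.09 (limma adjusted p = 1.8e-13), and the signs of EGR1 were opposite on all 6 scales. FOSB differed by 1.30 and FOS by 1.11, and JUND, which fell more in BxPC-3, by 1.25. FOSL1, an AP-1 subunit linked to sustained ERK activity, fell in MIA PaCa-2 alone (response -0.93, difference -0.98), and IER2 rose more in BxPC-3 (-1.01). NR4A1, an orphan nuclear receptor, had responses of 1.11 in BxPC-3 against -0.86 in MIA PaCa-2 at low levels.

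In the ERK pathway list, 11 genes were higher and 11 lower of 31, with a median of -0.18 that was below 0 on all 6 scales. At a mean of at least 10 in a group of each line 23 remained, of which 6 were higher and 10 lower. PHLDA1, a feedback gene of growth factor signalling, and the phosphatase DUSP1 were higher by 1.12 and 0.82, as were DUSP6 and SPRY2 by 0.68 and 0.71, and the last 2 fell in both lines, by more in BxPC-3. The feedback inhibitors SPRY4 and SPRED2 were lower by -1.26 and -0.97. SPRY4 went from a mean of 14 to 44.2 in BxPC-3 and from 539 to 680 in MIA PaCa-2. The ligand gene HBEGF rose more in BxPC-3, with a difference of -0.93.

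SOCS3, which blocks JAK kinases and so dampens cytokine signals, was the most different well-expressed gene of the interferon list. It went from 12.1, 14.2 and 14.1 to 6.78, 7.81 and 8.96 in BxPC-3 and from 6.67, 5.77 and 6.78 to 16.7, 15.8 and 14.1 in MIA PaCa-2, a difference of 1.87 ± 0.16 (limma adjusted p = 1e-09). The order of the lines was exchanged. IRF1, a transcription factor of the interferon response, went from a mean of 61.6 to 38.5 and from 27.3 to 58.7, a difference of 1.74 ± 0.10. SOCS1, at low levels, differed by 2.62, and IFIT1, an antiviral effector, fell in BxPC-3 alone, with a difference of 1.40. In the whole interferon list 15 genes were higher and 14 lower of 54 as deposited, with a median of 0.01, and this split moved with the scale: 12 and 3 with ERCC scaling, 21 and 10 with equal sums, and 19 and 10 with DESeq2 factors. At a mean of at least 10 in a group of each line 31 remained, of which 8 were higher and 10 lower, with a median of -0.11. TAP2, the peptide transporter of antigen presentation, rose in BxPC-3 alone (-0.83).

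In the NF-kB list 7 genes were higher and 16 lower of 35, with a median of -0.22. MAP3K14, the kinase NIK of the non-canonical pathway, fell from 17.2, 16.7 and 16 to 6.46, 6.91 and 6.86 in BxPC-3 and from 96.6, 89.8 and 91.2 to 18.2, 16.2 and 15.4 in MIA PaCa-2. Both lines fell without overlap, MIA PaCa-2 to about the untreated level of BxPC-3, and the difference was -1.23 ± 0.11. TRAF1, an adaptor of TNF receptor complexes, fell in MIA PaCa-2 alone (-1.88), their ubiquitin ligase BIRC3 fell in both lines and more in MIA PaCa-2 (-1.21), and TRAF3, which restrains NIK, differed by -0.85. TRAF1 and BIRC3 were named after their values were seen, and neither reached a mean of 10 in a group of each line. NFKBIZ, an atypical inhibitor, rose in MIA PaCa-2 alone (1.32), and IL1A, the cytokine, fell in BxPC-3 alone (1.35) from a mean of 51.0 to 17.1, while its level in MIA PaCa-2 was near 1.

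The TGF-beta list had 3 genes higher and 14 lower of 33, with a median of -0.23. Beside LTBP2, the feedback gene PMEPA1 fell more in MIA PaCa-2 (-1.08), the co-repressor TGIF2 and the inhibitory SMAD6 fell more in BxPC-3 (1.14 and 2.04), and TGIF1 fell in BxPC-3 alone (0.60, not called with ERCC scaling). Of the YAP and TEAD list 7 were higher and 13 lower of 29. On the deposited scale the target gene CYR61, a matricellular protein, fell in BxPC-3 and rose in MIA PaCa-2 (1.25 ± 0.06), as NUAK2 did (1.42). The mean of CYR61 went from 90.5 to 53 in BxPC-3 and from 422 to 591 in MIA PaCa-2. The kinase LATS2 fell in MIA PaCa-2 alone (-0.75). The Wnt list held 12 higher and 10 lower of 31, with a median of 0.07 that was -0.04 with ERCC scaling. At a mean of at least 10 in a group of each line 20 remained, 7 higher and 7 lower, with a median of -0.09. The receptors FZD5, FZD4 and FZD8 were higher by 1.03, 1.22 and 1.15, while BCL9 and ZNRF3 were lower, at -0.83 and -1.07. FZD4, FZD8 and SMAD6 were named after their values were seen, and none of them reached that level in each line.

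**Figure D4:**
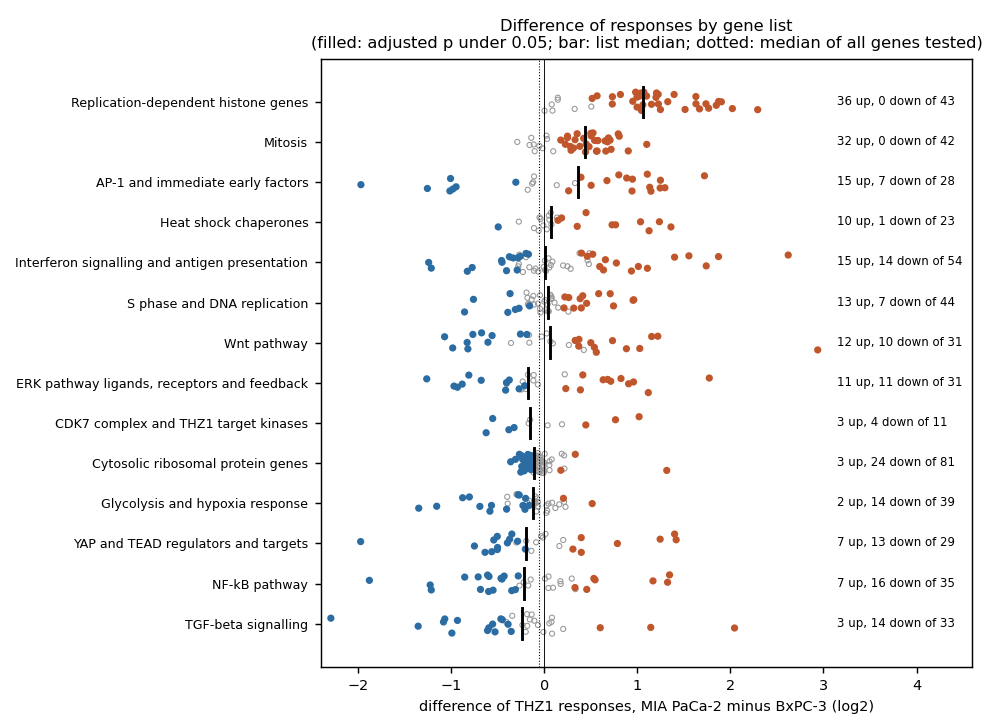
Difference of the THZ1 responses, MIA PaCa-2 minus BxPC-3 (log2, x axis), for members of 14 gene lists (rows). Each point is a gene, filled where its difference was called, orange if higher and blue if lower, the bar is the list median and the dotted line the median of all genes tested, -0.06. On the deposited scale, which is plotted, the histone and mitosis lists have no called member below 0; with equal medians 2 mitosis genes were lower.

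Of 23 heat shock chaperones 10 were higher in MIA PaCa-2 and 1 lower, with a median of 0.08. With ERCC scaling 6 were higher and 1 lower, while the median was -0.03. On the deposited scale HSPA8, the constitutive HSP70, fell in BxPC-3 from 1806, 1816 and 1810 to 1117, 1119 and 1115. On that scale it rose in MIA PaCa-2 from 1823, 1787 and 1831 to 2267, 2247 and 2360. The lines started level and were separated after THZ1, with a difference of 1.03 ± 0.04. The inducible HSPA1A rose more in MIA PaCa-2 (1.24), and its partner DNAJB1 fell more in BxPC-3 (1.36). Glycolysis and hypoxia genes were higher for 2 and lower for 14 of 39, and their called share of 41.0% was at the background of 41.1%. VEGFA, the angiogenic factor, went from 113, 114 and 117 to 292, 301 and 293 in BxPC-3 and from 32.7, 36.1 and 37.1 to 37, 37.4 and 32.1 in MIA PaCa-2, where the groups overlapped (difference -1.35 ± 0.08). Endoplasmic reticulum chaperones and sensors were higher for 1 and lower for 7 of 24, but for 4 and 5 with equal sums. In the ATF4 list 7 were higher and 10 lower of 27, with CEBPB, which fell more in BxPC-3, at 1.41 and the amino acid transporter SLC7A1 at -0.98. In the p53 list 9 were higher and 5 lower of 26 (4 and 4 with ERCC scaling), led by the antiproliferative gene BTG2 (1.55).

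Genes of the aryl hydrocarbon receptor, which switches on xenobiotic metabolism, were higher for 4 and lower for 1 of 9. The cytochrome CYP1A1 fell in BxPC-3 from 40.9, 43.4 and 42.1 to 5.76, 3.78 and 4.04, and was near 1 in MIA PaCa-2 throughout, so its difference of 2.67 rests on the line that expresses it. CYP1B1, which has a mean of 7.75 in MIA PaCa-2 with DMSO, differed by 1.57. Cholesterol and fatty acid genes were higher for 10 and lower for 2 of 29, but for 1 and 0 with ERCC scaling, with SQLE at 0.90. Epithelial markers were higher for 3 and lower for 12 of 23, at a median of -0.19 that was 0.01 with equal sums. The counts were 2 and 2 with ERCC scaling, 4 and 6 by edgeR and 3 and 5 by voom. At a mean of at least 10 in a group of each line 10 of the 23 remained, of which 1 was higher and 5 lower, with a median of -0.12. CLDN4, a tight junction protein, differed by -1.07.
The count of ribosomal protein genes called depended on the scale: 3 were higher and 24 lower of 81 as deposited, 1 and 0 with ERCC scaling, and 8 and 9 with equal sums.

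Lists with a smaller lean were these, given as genes higher and lower of those tested. NRF2 antioxidant genes had 5 and 4 of 23, mRNA decay adaptors 5 and 4 of 21, and splicing kinases and SR proteins 6 and 4 of 20. Genes of the termination complexes of ZC3H4 and PPP1R10 had 9 and 3 of 29; ZC3H4 itself fell steeply in both lines, with responses of -3.58 and -2.75. Mesenchymal markers had 3 and 7 of 17, S100 genes 1 and 3 of 8, metallothioneins 3 and 0 of 6, and mitochondrial mRNAs 0 and 3 of 13. At a mean of at least 10 in a group of each line 7 mesenchymal markers remained, 0 higher and 4 lower. Zinc finger genes had 80 and 101 of 400, long non-coding RNAs with LINC names 8 and 7 of 59, antisense-named genes 32 and 24 of 179, and snoRNA host genes 5 and 3 of 15. With ERCC scaling the antisense-named genes turned to 19 and 35 and the LINC-named ones to 6 and 12, the snoRNA host genes to 0 and 2, and with equal sums the zinc finger genes turned to 95 and 87. Over the 34 lists the share of members called ran from 23.1% to 83.7%, against 41.1% of all genes tested, and for several of these lists it lay close to that background.

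On each of the 6 scales the median difference was above 0 for the mitosis, histone, immediate early, aryl hydrocarbon receptor, cholesterol, snoRNA host, metallothionein and ribosomal RNA lists. It was below 0 on each for the NF-kB, TGF-beta, YAP, ERK, ATF4, CDK7, mesenchymal, S100, ribosomal protein and glycolysis lists. The median of all genes was itself -0.06 as deposited and -0.18 with ERCC scaling. Near these lay the medians of the glycolysis (-0.12 and -0.22), ribosomal protein (-0.11 and -0.21), S100 (-0.10 and -0.17) and ATF4 lists (-0.12 and -0.24). The mesenchymal median was near it as deposited, at -0.09. With equal sums the S100 median was -0.00047, and 2 S100 genes were higher and 0 lower. With ERCC scaling, NF-kB genes were higher for 4 and lower for 11, TGF-beta genes for 4 and 13, and glycolysis genes for 0 and 5.

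A feature that the lists did not use was the number of exons. Among protein-coding genes other than histones with an annotated structure (GENCODE v29, the largest number of exons of any transcript), the 181 genes with 1 exon were higher for 92 (50.8%) and lower for 14 (7.74%), with a median difference of 0.42. For the 5953 genes with 10 exons or more these were 892 (15.0%) and 1810 (30.4%), with a median of -0.09. Between them the medians were 0.10 with 2 exons, 0.00 with 3 or 4 and -0.05 with 5 to 9. With ERCC scaling the medians were 0.29, -0.05, -0.12, -0.17 and -0.20 in order of exon number. As deposited, genes with 1 exon fell by a median of 0.54 in BxPC-3, and their median in MIA PaCa-2 was -0.11. Over the 9 library pairs the former ran from -0.602 to -0.505 and the latter from -0.167 to 0.00138. At a level of at least 10 in both lines 57 of 96 genes with 1 exon were higher and 9 lower, with a median of 0.51, and edgeR called 89 and 11 of the 181. Within each of 3 classes of GC content the median of the genes with 1 exon lay above that of the others: 0.33 against -0.09, 0.35 against -0.07 and 0.57 against -0.03. A share of genes is given here as a description, since genes are not replicates. The structures come from a build other than the authors' hg19.

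**Figure D5:**
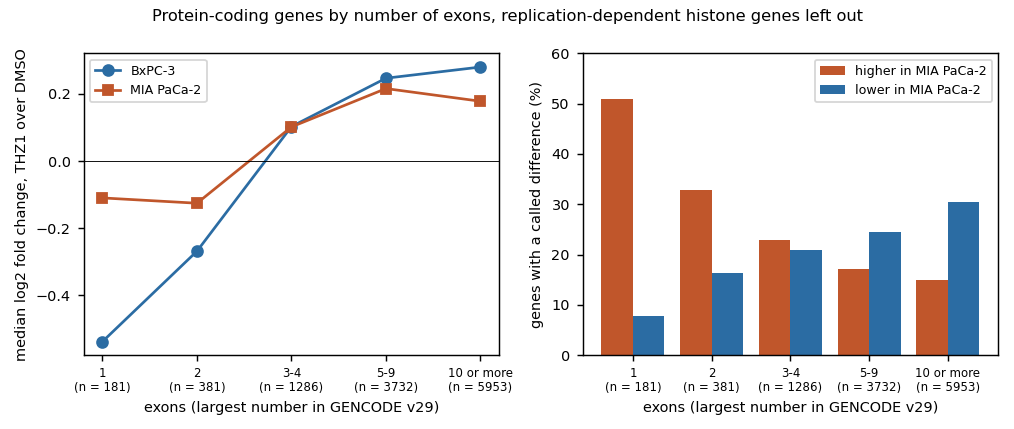
Protein-coding genes by number of exons, histone genes left out. The left panel gives the median log2 response in each line and the right panel the percentage of genes with a called difference in each direction. The line medians were -0.54 and -0.11 for genes with 1 exon, and 50.8% of these were higher in MIA PaCa-2.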

How the data were processed

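RNA of BxPC-3 and MIA PaCa-2 after 6 h with DMSO or 100 nM THZ1 was sequenced from stranded polyadenylated libraries, with ERCC controls added to the extracted RNA, per the labels' protocols. The aligner STAR and build hg19 are named in the submitters' processing notes. How reads were counted, on which annotation and strand, and how the divisor was set is not stated in these sources. What the authors deposited is a signal per gene and library, namely the read count over a whole-number divisor of that library. Times that number, 100% of the values lay within 0.001 of a whole count (largest deviation 0.000112). The authors' deposited log2 columns and score (an SD of log2 ratios) cover all 3 lines together and were not used. Values were multiplied by 17.6795, so that the mean library of 18 summed to 1e+06.

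Genes at 1 or more in at least 3 of the 12 libraries were tested (14891). limma 3.58.1 (R 4.3.3) was run with a trend on log2(value + 1) with 4 group means, residual df 8 and Benjamini-Hochberg adjustment over all of them. A fold change on this scale understates that of low genes. Alternatives were the scalings, edgeR 4.0.16, DESeq2 1.42.0 and voom on recovered reads, filters, pseudocounts, other libraries and each library left out. Chosen after seeing the data was the fit on 17 libraries. The grouping of genes by exon number and GC content was not among the comparisons planned beforehand.

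Named genes were the 10 highest and 10 lowest differences among called genes of at least 2-fold, with a mean of 10 or more in a group of each line and no overlap between lines; up to 8 opposite responses in each direction; the 2 highest and 2 lowest called members of each list at that level; and CDK7, CDK12, CDK13, MYC and MCL1. They came to 130, beside some that are not reported here. A further 37, which the report also draws on, were added after their values were seen. The members, lists and tests were chosen with earlier results of these data known. The main fit did not pair samples by replicate number.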

Additional observations from a re-analysis of the deposited data

Results flagged for a closer look

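The test of the difference between the lines itself (limma) marked each gene below: its response to THZ1 was larger, smaller or opposite in MIA PaCa-2 than in BxPC-3. Values are the difference of log2 responses, MIA PaCa-2 minus BxPC-3. Since 41.1% of the genes tested pass this test, a mark sets no gene apart, and no explanation was tested. With 3 libraries a group, single libraries that stand apart were not looked for.

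Within the Wnt pathway the response of DKK1 differed by 2.94, FZD5 by 1.03, FZD4 by 1.22 and FZD8 by 1.15. That of BCL9 differed by -0.83 and ZNRF3 by -1.07. Within the genes of no list the response of FAM43A differed by 2.61, BLOC1S3 by 2.46, LENG9 by 2.39, TIGD5 by 2.0, MOCS3 by 1.99 and LCMT2 by 1.85. That of H1F0 differed by 1.30. That of EPS8L1 differed by -3.08, GPR3 by -2.39, ZSWIM4 by -2.26, GPX1P1 by -2.16, MIR24_2 by -2.08 and RP11_296I10_6 by -1.91. That of SEMA4B differed by -1.75, ADAM8 by -1.74, MAP2K4 by -2.19 and MGLL by -1.46. Within the rRNA precursor-related repeat rows the response of RNA5_8SP6 differed by 2.47, MIR663A by 1.87, MIR3648 by 1.83 and MIR3687 by 1.76. Within the interferon list the response of SOCS3 differed by 1.87, IRF1 by 1.74, SOCS1 by 2.62, USP18 by 1.55, IFIT1 by 1.40 and OASL by 1.11.

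That of DDX58 differed by 1.01. That of JAK2 differed by -0.46 and TAP2 by -0.83. Within the TGF-beta signalling the response of TGIF2 differed by 1.14, TGIF1 by 0.60, SMAD6 by 2.04, LTBP2 by -2.29 and PMEPA1 by -1.08. Within the YAP and TEAD regulators and targets the response of NUAK2 differed by 1.42, CYR61 by 1.25, DLC1 by -1.97 and LATS2 by -0.75. Within the CDK7 complex and its relatives the response of HEXIM1 differed by 1.02, CDK9 by 0.77 and CDK7 by 0.45. That of CCNT1 differed by -0.55, CCNT2 by -0.62 and CDK13 by -0.38. Within the immediate early genes the response of EGR1 differed by 1.72, FOSB by 1.30, MYC by 1.15, FOS by 1.11, EGR3 by 1.13 and JUND by 1.25. That of FOSL1 differed by -0.98, IER2 by -1.01, NR4A1 by -1.97 and KLF2 by -1.26.

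Within the ERK pathway the response of PHLDA1 differed by 1.12, DUSP1 by 0.82, DUSP2 by 1.77, DUSP4 by 0.91, DUSP6 by 0.68 and SPRY2 by 0.71. That of ERBB3 differed by 0.96. That of SPRED2 differed by -0.97, SPRY4 by -1.26 and HBEGF by -0.93. Within the NF-kB pathway the response of NFKBIZ differed by 1.32, TRAF2 by 0.55, IL1A by 1.35 and LTB by 1.17. That of TRAF3 differed by -0.85, MAP3K14 by -1.23, BIRC3 by -1.21 and TRAF1 by -1.88. Within the p53 pathway the response of BTG2 differed by 1.55, PLK3 by 1.08, BAX by 0.34, AEN by -0.47 and MDM4 by -0.72. Within the ATF4 list the response of CEBPB differed by 1.41, PPP1R15A by 1.08, SLC7A1 by -0.98 and VEGFA by -1.35. Within the ER chaperones and unfolded protein response the response of HSPA5 differed by 0.31, DERL1 by -0.60 and SEL1L by -0.61.

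Within the heat shock chaperones the response of DNAJB1 differed by 1.36, HSPA1A by 1.24, HSPA8 by 1.03 and DNAJB6 by -0.49. Within the NRF2 antioxidant genes the response of PIR differed by 0.71, AKR1C1 by 0.38, NQO1 by 0.15, GCLM by -0.53 and ABCC3 by -0.55. Within the glycolysis list the response of LDHA differed by 0.21 and PDK1 by -0.80. Within the cholesterol list the response of SQLE differed by 0.90, INSIG1 by 0.64 and MVD by -0.28. Within the mitosis list the response of CDC25B differed by 1.10, CDC20 by 0.90, PLK1 by 0.72, CCNB1 by 0.79, AURKB by 0.68 and KIF20A by 0.81. Within the S phase and DNA replication the response of CDT1 differed by 0.96, E2F1 by 0.95, MCM10 by -0.76 and E2F2 by -0.86. Within the BCL2 family the response of MCL1 differed by 0.39, BCL2L1 by -0.52 and BAK1 by -0.58. Within the aryl hydrocarbon receptor list the response of CYP1A1 differed by 2.67, CYP1B1 by 1.57 and AHRR by -0.48.

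Within the mRNA decay adaptors the response of ZFP36 differed by 0.89, BTG3 by -0.49 and DCP2 by -0.83. Within the termination complexes the response of INTS6 differed by 1.08, ZC3H4 by 0.82, ZFC3H1 by -0.53 and PCF11 by -1.04. Within the splicing list the response of SRSF8 differed by 0.69, SRSF7 by 0.66, TRA2A by -0.26 and SRSF11 by -0.37. Within the epithelial markers the response of PKP3 differed by 0.37, ITGA6 by -0.43 and CLDN4 by -1.07. Within the mesenchymal markers the response of VIM differed by -0.34 and ITGA5 by -0.75. Within the S100 genes the response of S100A6 differed by -0.23 and S100A2 by -0.35. Within the metallothioneins the response of MT1E differed by 0.84 and MT2A by 0.26. Within the mitochondrial mRNAs the response of MT_ND4L differed by -0.17 and MT_CO1 by -0.25.

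Within the histone genes the response of HIST2H2BE differed by 1.63, HIST1H2AC by 0.51, HIST1H2BB by 2.29 and HIST1H3B by 2.02. Within the ZNF-named zinc finger genes the response of ZNF319 differed by 1.45, ZNF574 by 1.16, ZNF609 by -1.39 and ZNF317 by -1.43. Within the ribosomal protein genes the response of RPL36A differed by 1.32, RPL22L1 by 0.33, RPS15A by -0.31 and RPS29 by -0.36. Within the LINC-named long non-coding RNAs the response of LINC00657 differed by 1.07, LINC00847 by 0.88, LINC00641 by -0.63 and LINC00969 by -1.25. Within the antisense-named genes the response of CTBP1_AS2 differed by 1.05, PSMD5_AS1 by 0.36 and NCBP2_AS2 by -0.68. Within the snoRNA host genes the response of SNHG3 differed by 0.56, SNHG16 by 0.53, SNHG5 by -0.19 and SNHG1 by -1.13.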

How the results depend on the processing

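Of 29 alternatives, ERCC scaling and the fit on all 18 libraries moved the counts by over 1.5 times. With ERCC scaling 3350 genes differed, 936 higher and 2414 lower, and 98 were opposite, 32 up in MIA PaCa-2 and 66 up in BxPC-3. With 18 libraries these were 2140, 956, 1184, 197, 85 and 112. Without PANC-1 DMSO replicate 1, the remaining 17 gave 5412. DESeq2 on recovered reads called 2328 lower (2547 higher). The cause was not tested. Leaving out each library in turn gave 5469 to 6003 genes, 2202 to 2429 higher, 3267 to 3574 lower and 505 to 573 opposite. The other alternatives stayed within 1.5 times in counts, but the opposite genes were not always the same ones. Equal sums gave 449 opposite genes, of which 45 were among the 596 of the main fit. TMM factors gave 573 with 206 shared, edgeR 568 with 210, and equal medians 621 with 534. Of the 98 with ERCC scaling 12 were shared. With a replicate block shared by both lines 5831 genes differed (2382 higher, 3449 lower), and with a block within each line 6893. The deviations of same-numbered libraries correlated at 0.001 to 0.15 within a line, against -0.136 to 0.066 for different numbers. Between lines those of same-numbered libraries correlated at -0.198 to -0.006. Whether equal numbers mark pairs within a line is not settled by these values. Of the 166 named genes with a called difference 49 lost it under at least 1 alternative, 31 with ERCC scaling, 41 with 18 libraries and 8 when a library was left out. None reversed. Of the 20 leading genes 0 lost it, but these were chosen for large differences without overlap in the same libraries, so this is no separate test. A unit of level stands for 9.50 to 24.7 reads, which limits genes near a level of 1.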

Other observations

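The genes with opposite signs on all 6 scales include several that no list held. They were chosen after their values were seen and are given as values. PTPN6, the phosphatase SHP-1 that damps cytokine and receptor signals, had responses of -0.38 in BxPC-3 against 1.48 in MIA PaCa-2, from DMSO levels of 32.3 and 0.869. PTGER4, a prostaglandin E2 receptor, had -0.67 and 0.39 from levels of 30.2 and 0.185. In the other direction MAP2K4, a kinase of the JNK pathway, had 1.5 and -0.68 from 2.22 and 35.7, MGLL, a monoacylglycerol lipase, 1.21 and -0.25 from 81.0 and 0.875, and CARD9, an adaptor of innate immunity, 0.92 and -0.68 from 0.944 and 11.3. Each of these was much weaker in 1 line than in the other, so the size of its response in the weaker line is poorly known.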
